A study of Mus musculus with 4 samples.

Results

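The 35 genes described here carry out cholesterol synthesis and the handling of lipids, and all 35 were found by gene name among the 28193 genes of the deposited count table. They comprised 8 genes of the mevalonate and isoprenoid steps, 11 genes from squalene to cholesterol, 5 genes of sterol sensing, 3 of lipid uptake, 4 of sterol transport and turnover and 4 of fatty acid synthesis. All 35 exceeded the count minimum of 5 in each of the 4 libraries and were tested. The libraries hold ribosome-bound RNA from male C57BL/6J mice aged 3 to 5 months. A c-Fos driven Cre recombinase that needs 4-hydroxytamoxifen, and a Cre-dependent HA-tagged ribosomal protein Rpl22, were delivered to dorsal CA1 by viral injection, so that cells active during the tagging window carried HA-tagged ribosomes. The labels name the tissue dorsal hippocampus and the genotype cFos-Cre:Ribotag. Every mouse, controls included, received both viruses and 4-hydroxytamoxifen and was sleep deprived for 5 h by gentle handling on day 0, when cells were tagged. On day 7 one group was sleep deprived again for 5 h (SD) and the other was left undisturbed (NSD), and CA1 was collected at zeitgeber time 5. Each group had 10 mice in 2 libraries, and each library pooled 5 mice and was purified with an antibody to HA. The comparison therefore asks how a second sleep deprivation altered ribosome-bound RNA in cells tagged during the first, and no library in it comes from mice that were never sleep deprived.

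Cholesterol in the adult brain is made locally, since lipoproteins of the blood do not cross the blood-brain barrier. Acetyl-CoA is converted through mevalonate and farnesyl diphosphate to squalene, which is closed into a sterol ring and modified stepwise to cholesterol. SREBF2 (SREBP2) and SREBF1 (SREBP1) are transcription factors held in the endoplasmic reticulum with their escort SCAP by INSIG1 and INSIG2 when sterols are plentiful, and released to drive genes of sterol and fatty acid synthesis when sterols are scarce. Neurons also take up lipoproteins made by astrocytes, and turn over surplus cholesterol through 24-hydroxylation by CYP46A1.

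The promoters of 3 synthesis genes are shown because one holds a match to the sterol regulatory element bound by SREBPs, and the others belong to enzymes of neighbouring steps whose fold changes had opposite signs. Each line gives the 250 bases before the RefSeq start site, 5′ to 3′ on the strand of the gene, with matches to TCACNCCAC and to CCAAT on either strand in capitals. The sequences came from RefSeq (GRCm38.p6) and were each found once in GRCm39, at chr13:120151637-120151886 on the plus strand for Hmgcs1, chr5:4154698-4154947 on the minus strand for Cyp51 and chr10:76367189-76367438 on the plus strand for Lss.
Hmgcs1: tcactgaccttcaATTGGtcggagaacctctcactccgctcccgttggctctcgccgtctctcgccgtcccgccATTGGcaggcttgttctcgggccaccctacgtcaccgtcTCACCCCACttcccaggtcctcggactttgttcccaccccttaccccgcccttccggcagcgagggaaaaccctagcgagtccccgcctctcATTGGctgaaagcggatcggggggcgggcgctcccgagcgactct
Cyp51: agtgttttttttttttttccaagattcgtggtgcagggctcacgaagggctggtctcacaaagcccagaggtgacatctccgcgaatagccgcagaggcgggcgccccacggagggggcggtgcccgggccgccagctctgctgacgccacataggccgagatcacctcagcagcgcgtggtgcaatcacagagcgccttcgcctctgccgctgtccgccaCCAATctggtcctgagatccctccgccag
Lss: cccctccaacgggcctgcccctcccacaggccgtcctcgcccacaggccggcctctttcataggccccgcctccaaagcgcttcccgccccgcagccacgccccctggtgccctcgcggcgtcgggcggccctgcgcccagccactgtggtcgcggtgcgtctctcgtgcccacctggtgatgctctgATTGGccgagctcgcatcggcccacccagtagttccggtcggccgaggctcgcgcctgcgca
The Hmgcs1 stretch held 1 match to TCACNCCAC and 3 to CCAAT, and those of Cyp51 and Lss held 1 CCAAT each and none to TCACNCCAC.

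Promoter windows of 300 bases, 250 before to 50 after the start, were given for 27 of the 35 genes, in 38 windows, and Lpl was not among them. Both strands were searched, and motifs were counted separately whether or not they overlapped. CCAAT, the letters bound by NF-Y, was present in 60.5% of the 38 windows and in 37.4% of all 32851 promoter windows. By gene, 15 of the 16 sterol synthesis genes with a window held it, all but Acat2, or 93.8%, against 41.1% of all 27025 genes with a window. GGGCGG, a GC box, was present in 68.4% of the 38 windows against 35.7% of all windows, and CACGTG, an E-box, in 18.4% against 7.15%. The 9 windows of lipid uptake, transport and fatty acid genes held CCAAT in 33.3% and GGGCGG in 33.3%. By gene, 3 of those 6 genes held each, or 50%. The windows of all genes were not limited to protein-coding genes. TCACNCCAC was found in 1 of the 38 windows, that of Hmgcs1, or 2.63% against 1.24% of all windows. These are matches of letters, and binding was not measured.

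Depth ranged from 153511705 to 195910235 estimated counts per library. Levels are given as CPM, a gene's counts scaled to the same library total in every library, with library sizes adjusted by trimmed mean of M-values, and differences as the log2 fold change of SD over NSD with its standard error (SE). A gene was called when the adjusted p of edgeR's quasi-likelihood test over all 22338 genes tested was under 0.05 and the fold change was over 1.2, or 0.26 on the log2 scale. Markers of CA1 pyramidal cells were all present. Markers of glia, interneurons and vessels were also detected, and none of the marker genes was at 0 in any library. Some were high, with a mean in NSD of 977 CPM for Mbp of oligodendrocytes and 322 for Gad1 of interneurons. The highest mean of a CA1 pyramidal marker in NSD was 446 CPM, for Mpped1. None of the libraries was of input or untagged RNA, so enrichment for tagged cells was not measured. The part of tagged cells in each level was not tested. Fos stood at 271 and 513 CPM with NSD against 336 and 375 with SD, and Rpl22, which can hold reads of the viral transgene, at 628 and 1045 against 610 and 809, so the groups overlapped for both. In these bulk libraries, fewer cells of a type and less RNA per cell cannot be told apart. Libraries with the same number share a batch in the labels, so a second fit took the batch as a block, and its values are given beside each of the 35 genes whose call it changes.

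Most of the 35 genes lay close to their NSD level in SD, and 1 gene, Lpl, was called, with lower levels in SD. No gene was called higher with edgeR, 5 of the 35 had an unadjusted p under 0.05, where 14.6% of protein-coding genes did, and DESeq2 called 1 higher, Cyp51. Over all genes tested 0.770% were called higher and 2.33% lower, and over protein-coding genes, which all 35 are, 0.952% and 0.540%. The log2 fold change was within 0.1 of 0 for 24 genes and within 0.2 for 30, with 17 above 0 and 18 below. Its median was -0.0039 over the 35 genes and 0.018 over the 15551 protein-coding genes. The SD pair lay wholly above the NSD pair for 6 of the 35 genes and wholly below for 7, where 26.5% of protein-coding genes lay above and 20.0% below. For 14 genes the whole 95% interval lay inside a fold change of 1.2 in either direction, and for the other 21 genes a change of that size is not excluded by the interval. With the batch block 1 gene was called higher, Insig2, and 3 lower, Lpl, Tm7sf2 and Lss, where 3.77% and 3.29% of protein-coding genes were called. DESeq2 called Cyp51 higher and Lpl lower, where 3.92% and 1.79% were called.

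**Figure D1:**
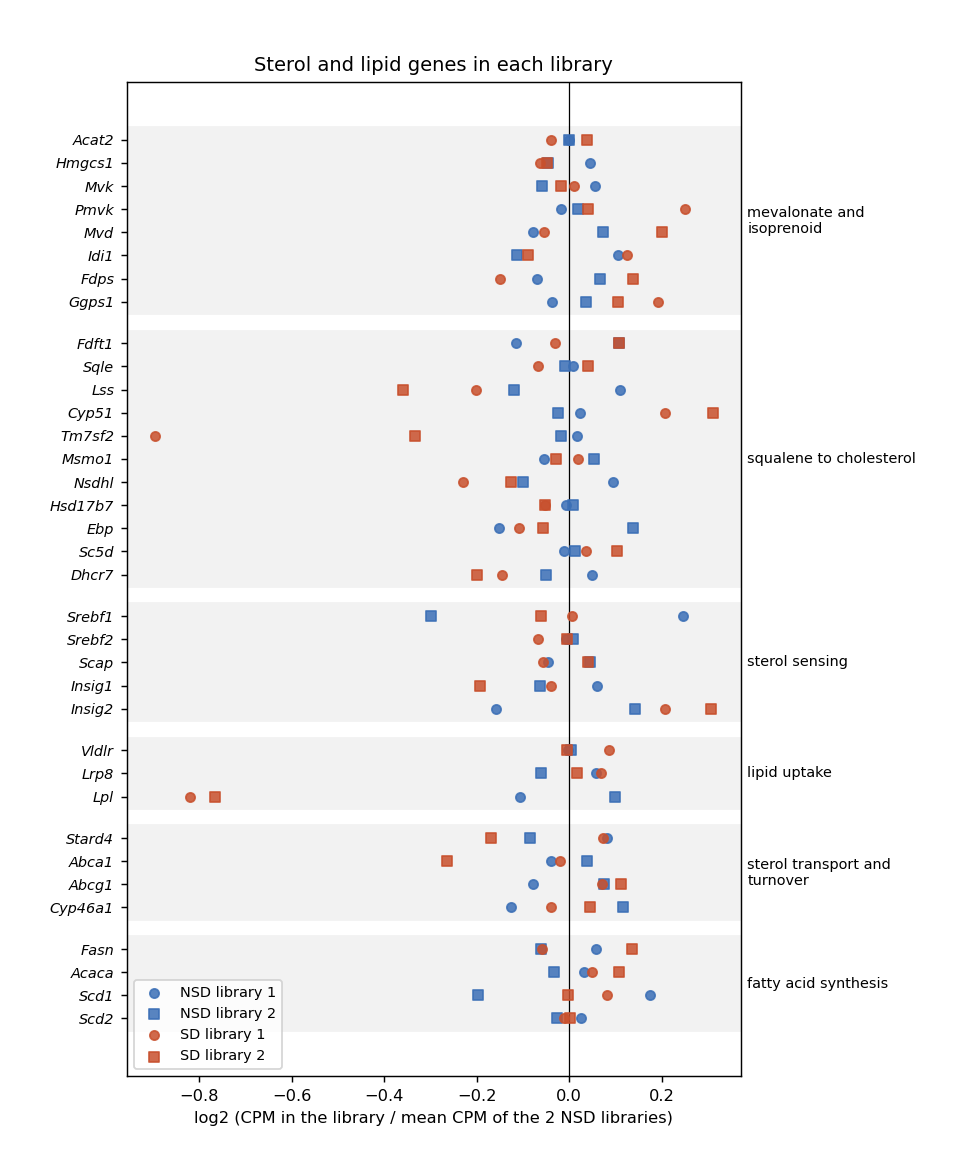
Level of each of the 35 genes in each library, as the log2 ratio of its CPM to the mean CPM of the 2 NSD libraries, grouped by role. Circles are batch 1 and squares batch 2, blue for NSD and orange for SD; both SD points of Lpl and of Tm7sf2 sit left of their NSD points, and Srebf1 and Scd1 are spread widest between the NSD libraries.

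**Figure D2:**
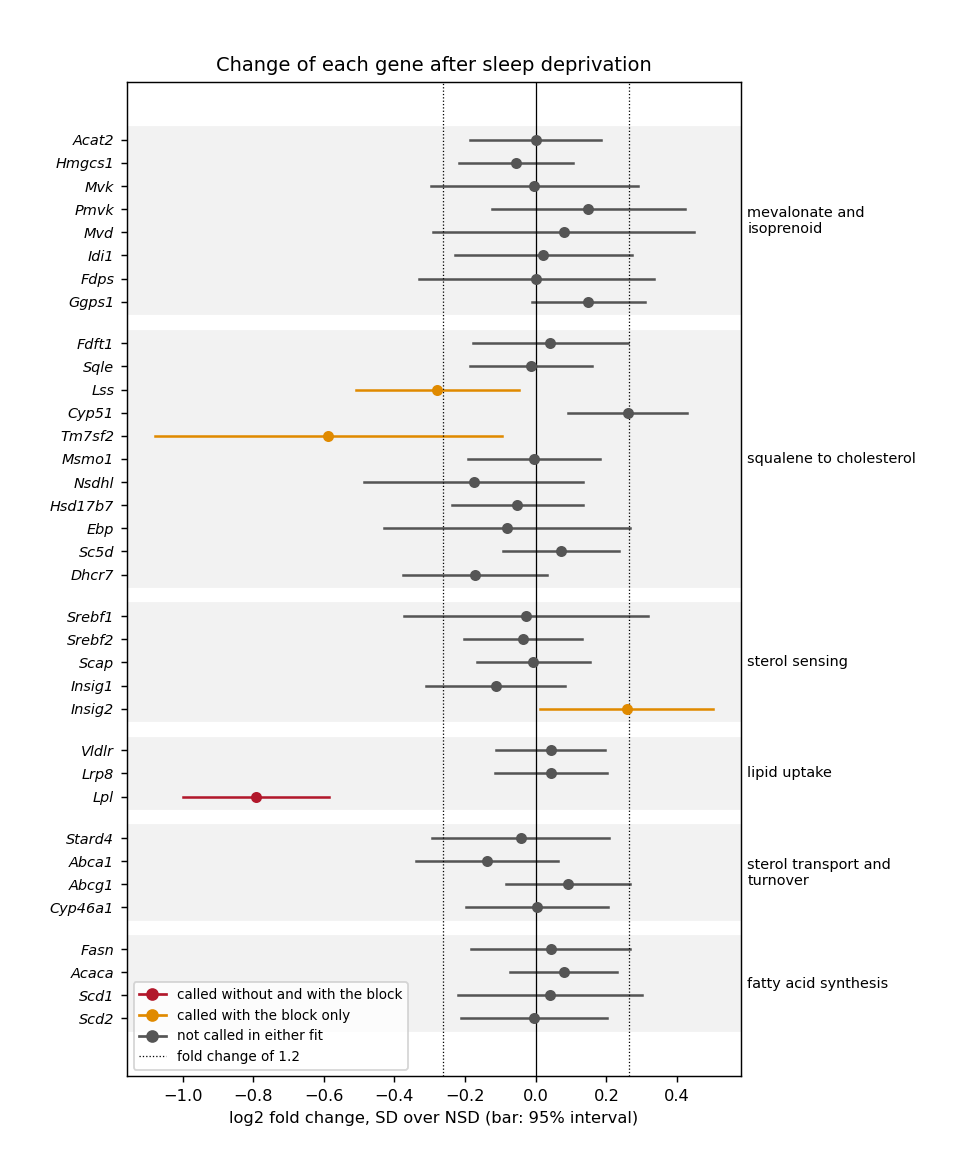
Log2 fold change of SD over NSD for each gene, with bars for the 95% interval of the edgeR fit without the block and dotted lines at a fold change of 1.2. Lpl, in red, was called in both fits, and Lss, Tm7sf2 and Insig2, in orange, only with the batch block.

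The 8 mevalonate and isoprenoid genes did not pass the test in either direction by edgeR or DESeq2, and none had an unadjusted p under 0.05. Their summed level was 250 and 241 CPM in NSD and 247 and 244 in SD. Hmgcs1, the HMG-CoA synthase whose promoter held the sterol regulatory element match, was at 147.0 and 138.0 CPM in NSD and 136.4 and 137.8 in SD (log2 fold change -0.06, SE 0.070, adjusted p = 0.752 by edgeR). The SD values lay just below the lower NSD value. Ggps1, which makes geranylgeranyl diphosphate for protein prenylation, was at 39.5 and 41.6 CPM in NSD and 46.3 and 43.6 in SD (log2 fold change 0.15, SE 0.070, adjusted p = 0.302 by edgeR), and its groups did not overlap. Ggps1 shares 257 exon bases with Arid4b on the other strand, whose count was 102% of that of Ggps1. The log2 fold change of Arid4b was 0.14 (SE 0.071, adjusted p = 0.357 by edgeR), and the part of its reads in the Ggps1 value was not tested. Pmvk, the phosphomevalonate kinase, was at 7.84 and 8.05 CPM against 9.44 and 8.18, again without overlap, and had an adjusted p of 0.580. The groups overlapped for the other 5, Acat2, Mvk, Mvd, Idi1 and Fdps, with log2 fold changes between -0.0039 for Mvk and 0.079 for Mvd.

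The 11 genes from squalene to cholesterol held the widest spread of fold changes in synthesis, from -0.59 for Tm7sf2 to 0.26 for Cyp51, with 8 below 0. With all 4 libraries edgeR called none without the block, and 3 had an unadjusted p under 0.05, Cyp51, Lss and Tm7sf2. DESeq2 called 1, Cyp51. Their summed level stayed between 207 and 215 CPM in all 4 libraries.

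Lss, the lanosterol synthase that closes squalene epoxide into the first sterol ring (ENSMUSG00000033105, chr10:76367422-76392973, GRCm39), was at 27.3 and 23.3 CPM in NSD and 22.0 and 19.7 in SD, without overlap. Its log2 fold change was -0.28 (SE 0.10, 95% interval -0.51 to -0.048, adjusted p = 0.174 by edgeR) without the block and -0.28 (SE 0.071, adjusted p = 0.0190) with it, which is a call. Within batch 1 the difference was -0.31 and within batch 2 -0.24. Without NSD replicate 1 and without the block it was -0.13 (adjusted p = 0.638 by edgeR).

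Cyp51, the lanosterol 14-alpha demethylase that acts on the product of Lss (ENSMUSG00000001467, chr5:4131145-4154747), had a fold change of the other sign, at 30.9 and 29.9 CPM in NSD and 35.1 and 37.8 in SD. The groups did not overlap. Its log2 fold change was 0.26 (SE 0.074, 95% interval 0.091 to 0.43, adjusted p = 0.0962 by edgeR). With the block the adjusted p was 0.0199 and the log2 fold change, 0.26, stayed just under the fold change threshold, and DESeq2 called it (log2 fold change 0.28, adjusted p = 0.0276). Cyp51 shares 1253 exon bases, 21.1% of its exon length, with Akap9 on the other strand, whose count was 406% of that of Cyp51 and whose own log2 fold change was 0.35 (SE 0.11, adjusted p = 0.121 by edgeR, 0.00438 with the block). The library kit keeps strand, but whether counting used it is not given in the sources used here, and the part of Akap9 reads in the Cyp51 value was not tested.

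Tm7sf2, a sterol C14-reductase of the following step (ENSMUSG00000024799, chr19:6112851-6118404), was at 4.26 and 4.16 CPM in NSD and 2.26 and 3.34 in SD. Both SD libraries were lower, and they differed from each other more than the NSD libraries did. The log2 fold change was -0.59 (SE 0.21, 95% interval -1.08 to -0.096, adjusted p = 0.179 by edgeR) and -0.61 (SE 0.17, adjusted p = 0.0331) with the block, a call. It was -0.91 in batch 1 and -0.32 in batch 2, and without SD replicate 2 it was called without the block as well (-0.89, adjusted p = 0.0357 by edgeR). Without SD replicate 1 it was -0.33 (adjusted p = 0.564 by edgeR). Tm7sf2 shares 532 exon bases with Vps51 on the same strand, so strand cannot separate their reads. The Vps51 count was 1140% of that of Tm7sf2 and its log2 fold change was -0.12 (SE 0.073, adjusted p = 0.435 by edgeR). The part of Vps51 reads in the Tm7sf2 value was not tested.

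Dhcr7, which reduces 7-dehydrocholesterol to cholesterol, was at 17.0 and 15.9 CPM in NSD and 14.9 and 14.3 in SD, without overlap (log2 fold change -0.17, SE 0.089, adjusted p = 0.353 by edgeR). The log2 fold change of Dhcr7 ranged from -0.22 to -0.092 on leaving out libraries. Nsdhl and Hsd17b7, which act on the C4 position of the ring, also had both SD libraries below NSD, at 5.77 and 6.20 against 7.22 and 6.31 CPM for Nsdhl and at 17.12 and 17.10 against 17.65 and 17.84 CPM for Hsd17b7. Sc5d, the lathosterol oxidase, had both above, at 30.2 and 31.6 against 29.1 and 29.6 CPM, with a log2 fold change of 0.071. The groups overlapped for Fdft1 and Sqle, which make squalene and its epoxide, and for Msmo1 and Ebp, with log2 fold changes from -0.082 for Ebp to 0.041 for Fdft1. For 11 of the 35 genes exons overlap those of another gene whose count is 10% of theirs or more, Fdft1 among them, with Ctsb on the other strand.

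**Figure D3:**
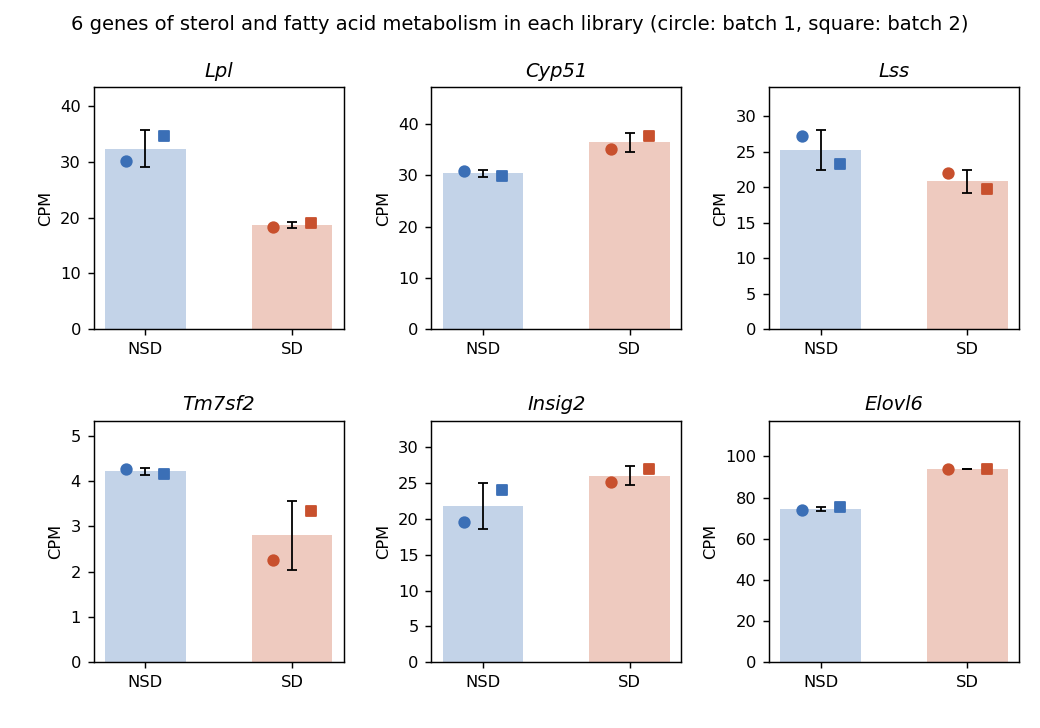
CPM of 6 genes in each library, with each panel starting at 0; bars are the group mean, error bars the standard deviation of 2 libraries, circles batch 1 and squares batch 2. Lpl, Lss and Tm7sf2 have SD points wholly below their NSD points, and Cyp51, Insig2 and Elovl6 have them wholly above.

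Among the sterol sensing genes 1 of 5 was called, Insig2, and only with the batch block. Without the block edgeR called none, 1 had an unadjusted p under 0.05, and DESeq2 called none. Srebf2 was at 226 and 229 CPM in NSD and 217 and 227 in SD (log2 fold change -0.04, SE 0.073, 95% interval -0.20 to 0.13). Scap was at 89.7 and 95.6 CPM against 89.2 and 95.4, so that the libraries of each batch were alike (log2 fold change -0.01, SE 0.070). Both intervals lay inside a fold change of 1.2.

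Insig2, which retains the SREBP and SCAP complex (ENSMUSG00000003721, chr1:121232082-121260319), was at 19.5 and 24.0 CPM in NSD and 25.1 and 26.9 in SD, with no overlap. Its log2 fold change was 0.26 (SE 0.11, 95% interval 0.012 to 0.50, adjusted p = 0.239 by edgeR), and 0.26 with the block (SE 0.075, adjusted p = 0.0320), just over the fold change threshold and called. The difference was 0.36 in batch 1 and 0.16 in batch 2. In the fit without the block it was 0.14 without NSD replicate 1 (adjusted p = 0.561 by edgeR) and 0.42 without NSD replicate 2 (adjusted p = 0.0548). Insig1, its paralog, was at 30.3 and 27.8 CPM in NSD and 28.3 and 25.5 in SD, with log2 differences of -0.10 and -0.13 within the batches (log2 fold change -0.11, adjusted p = 0.553 by edgeR, 0.309 with the block). On leaving out libraries the log2 fold change of Insig1 ranged from -0.19 to -0.021.

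Srebf1 had the widest spread of the 35 genes between the NSD libraries as a ratio of CPM, at 34.7 and 23.8 CPM, and the SD libraries lay between them at 29.4 and 28.0. Its difference was -0.24 in batch 1 and 0.24 in batch 2, with a log2 fold change of -0.03 (SE 0.15, adjusted p = 0.953 by edgeR), and its interval reached from -0.37 to 0.32.

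Lpl, lipoprotein lipase, which releases fatty acids from triglyceride-rich lipoproteins, fell the most of the 35 genes (ENSMUSG00000015568, chr8:69333143-69360101). It was at 30.1 and 34.7 CPM in NSD and at 18.3 and 19.0 in SD (32.4 ± 3.26 and 18.7 ± 0.493, mean and standard deviation, n = 2 each). Both SD values lay below both NSD values, by more than the spread within either group. The log2 fold change was -0.79 (SE 0.090, 95% interval -0.999 to -0.59), so that Lpl fell by 42.3%, with an adjusted p = 0.0328 by edgeR, 1.69e-05 with the block and 3.78e-10 by DESeq2. The difference was -0.71 in batch 1 and -0.87 in batch 2. The call was lost when edgeR's filterByExpr chose the genes (adjusted p = 0.0628), where the log2 fold change was -0.79.

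Markers of vessels had fold changes of the same sign as Lpl. Of 10 endothelial markers all 10 had a log2 fold change below 0, 7 had SD wholly below NSD, and edgeR called none without the block (7 at an unadjusted p under 0.05) and 6 lower with it, and DESeq2 called 4 lower. Their summed level was 52.6 and 72.6 CPM in NSD and 43.7 and 28.7 in SD. All 8 mural markers were below 0, 5 without overlap, and edgeR called none without the block (1 at an unadjusted p under 0.05) and 1 lower with it, and DESeq2 called none, with a summed level of 74.2 and 70.6 CPM in NSD and 66.2 and 54.0 in SD. Choroid plexus markers, 4 of 4 tested, were also below 0, with a summed level of 61.0 and 132 CPM against 63.3 and 40.1. Of these Kl was called lower by edgeR (log2 fold change -0.54, adjusted p = 0.0405), with the block and by DESeq2, Kcnj13 was called lower with the block (adjusted p = 0.0452) and by DESeq2 (adjusted p = 0.0473), and Ttr gave 14.2 and 69.8 CPM of the NSD sums and 25.6 and 4.21 of the SD sums. Microglial markers were at 102 and 82.4 CPM in NSD and 102 and 78.9 in SD, astrocyte markers at 510 and 465 against 522 and 485, and oligodendrocyte markers at 1922 and 1594 against 1856 and 1766, with the groups overlapping in each. Among CA1 pyramidal markers Wfs1, Fibcd1 and Man1a were lower in both SD libraries, and Mpped1 and Gpr161 were higher in both. None of these 5 was called by edgeR without the block, though all but Mpped1 had an unadjusted p under 0.05. With it Wfs1 (adjusted p = 0.00246), Fibcd1 (0.00286) and Man1a (0.00194) were called lower and Gpr161 (0.000915) higher, and DESeq2 called the same 4. The part of these cell types in the Lpl result was not tested.

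The 2 lipoprotein receptors of the uptake group were not called and stayed close to their NSD level. Vldlr, the very low density lipoprotein receptor, was at 107 CPM in both NSD libraries and 114 and 107 in SD (log2 fold change 0.04, SE 0.067, 95% interval -0.11 to 0.20). Lrp8, the receptor that binds reelin as well as lipoproteins, was at 87.4 and 80.5 CPM in NSD and 88.1 and 84.9 in SD (log2 fold change 0.04, SE 0.069, 95% interval -0.12 to 0.20). Both intervals lay inside a fold change of 1.2.

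No gene of sterol transport and turnover passed the test by edgeR or DESeq2 or had an unadjusted p under 0.05, and the groups overlapped for all 4. Abca1, which exports cholesterol to lipoproteins, was at 82.3 and 86.8 CPM in NSD and 83.4 and 70.3 in SD. It was alike in batch 1, with a difference of 0.019, and lower in SD in batch 2, by -0.30 (log2 fold change -0.14, SE 0.088, adjusted p = 0.468 by edgeR). Abcg1, a second exporter, was at 122 and 135 CPM against 135 and 139 (log2 fold change 0.09, SE 0.076). Cyp46a1, the cholesterol 24-hydroxylase of neurons, was at 77.7 and 91.9 CPM against 82.5 and 87.5 (log2 fold change 0.0041, SE 0.088, 95% interval -0.20 to 0.21). Stard4, which carries sterols between membranes, was at 17.8 and 15.9 CPM against 17.8 and 15.0 (log2 fold change -0.04, SE 0.11).

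The 4 genes of fatty acid synthesis had log2 fold changes between -0.0047 for Scd2 and 0.08 for Acaca, no call by edgeR or DESeq2 and no unadjusted p under 0.05, and the 95% interval lay inside a fold change of 1.2 for 2 of them, Acaca and Scd2. Fasn, the fatty acid synthase, was at 476 and 439 CPM in NSD and 439 and 503 in SD. Its difference was -0.12 in batch 1 and 0.20 in batch 2. Scd1, a desaturase, was at 135 and 104 CPM against 126 and 119, and its differences of -0.09 and 0.19 had the same signs. Acaca, which makes malonyl-CoA, was at 93.2 and 89.0 CPM against 94.3 and 98.1 and was the one of the 4 whose groups did not overlap (log2 fold change 0.08, SE 0.066, adjusted p = 0.60 by edgeR). Scd2, a second desaturase, was at 903 and 870 CPM against 880 and 887. Scd1 and Scd2 are close paralogs, and how the estimation step divided the reads they share was not tested.

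Per kilobase of exon, Scd2 stood highest of the 35 genes at 118 CPM per kilobase, followed by Fasn at 39.7, Hmgcs1 at 26.5, Srebf2 at 24.1 and Cyp46a1 at 20.5. By the mean over all 4 libraries, which pools 2 groups that differed for it, Lpl was 27th of the 35, at 2.46 and 2.84 in NSD and 1.5 and 1.56 in SD. Tm7sf2 at 0.713 and Mvk at 0.571 were lowest. Apart from Hmgcs1, the mevalonate genes lay between 7.59 for Ggps1 and 0.571 for Mvk, and from squalene onward the 11 genes lay between 5.75 for Fdft1 and 0.713 for Tm7sf2. Neighbours in the order often could not be separated, as for Srebf1 at 4.92, whose NSD libraries were at 5.89 and 4.04, and Sc5d at 4.91.

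**Figure D4:**
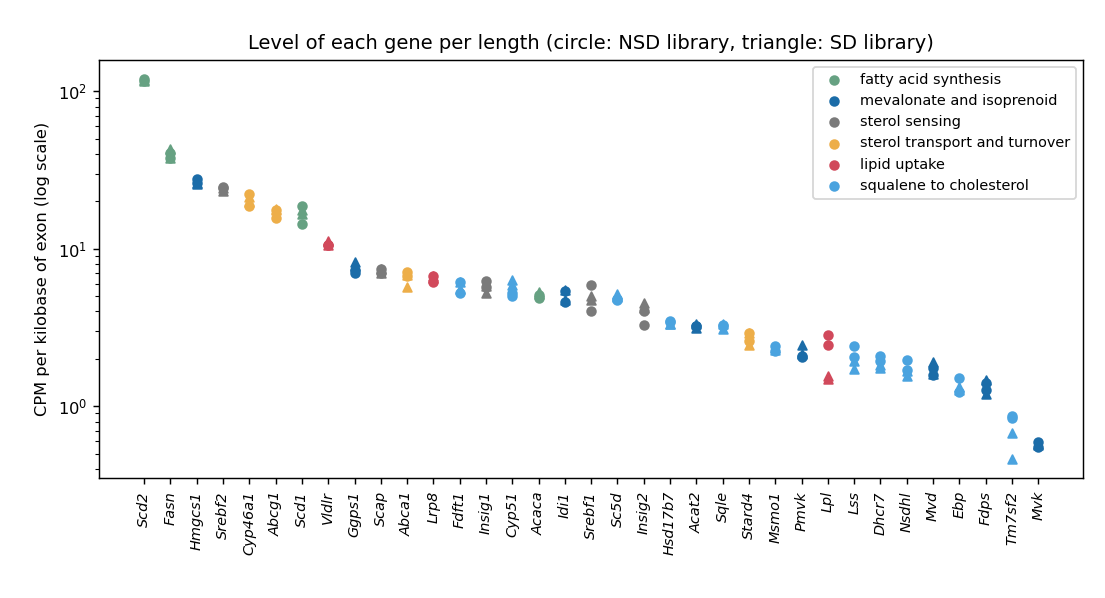
Level of each of the 35 genes in CPM per kilobase of exon on a log axis, ordered by the mean over the libraries and coloured by role; circles are NSD and triangles SD libraries. Scd2 lies highest at 118 and Mvk lowest at 0.571, and the SD triangles of Lpl and Tm7sf2 lie clear below their circles.

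Sterol synthesis set against lipid handling gave medians on either side of 0 and close to it. The 19 synthesis genes had a median log2 fold change of -0.0039, 9 above 0 and 10 below, and a summed level of 462 and 453 CPM in NSD and 454 and 459 in SD. The 11 genes of uptake, transport and fatty acid synthesis had a median of 0.04, 7 above 0 and 4 below, and 0.041 without Lpl, with summed levels of 2130 and 2054 CPM in NSD and 2079 and 2129 in SD. The groups overlapped in both sums.

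A wider list of 58 genes of the same pathways, 57 of them in the table, was read from the same fits. In edgeR 1 of the 57 was called, higher, and with the block 1 was higher and 1 lower. Elovl6, which elongates palmitate to stearate, was at 74.0 and 75.3 CPM in NSD and 93.7 and 93.8 in SD, with a gap larger than the spread within either group (log2 fold change 0.33, SE 0.062, adjusted p = 0.0397 by edgeR, 0.00134 with the block). Its call was lost without NSD replicate 1 (log2 fold change 0.35, adjusted p = 0.0629). Gramd1a, which moves cholesterol from the plasma membrane to the endoplasmic reticulum, was at 52.5 and 49.8 CPM in NSD and 41.3 and 43.1 in SD (log2 fold change -0.28, SE 0.068, adjusted p = 0.0677 by edgeR, 0.00896 with the block, where it was called). Calls among the 13 other sterol and isoprenoid genes and the 11 other sterol sensing genes numbered 0 with edgeR in both fits, with 1 gene of each at an unadjusted p under 0.05. DESeq2 called 1 of the second group, Rxra, higher (log2 fold change 0.27, adjusted p = 0.0111), where 3.92% of protein-coding genes were called higher.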

How the data were processed

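Ribosome-bound RNA from 4 libraries (2 NSD, 2 SD, pools of 5 mice) was sequenced after ribosomal RNA depletion with a stranded total RNA kit. The authors deposited estimated counts for each gene, made by trimming, alignment to mm39 with STAR and the Partek expectation-maximisation step against Ensembl genes. Tools and build follow the study's methods and the submitters' processing notes, and 55.6% of genes hold a value that is not whole. No gene in the table has under 10 counts in total.

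Counts were rounded, and the 22338 of 28193 genes that exceeded 5 counts in all libraries entered edgeR 4.0.16 under R 4.3.3 (limma 3.58.1), using TMM scaling, the quasi-likelihood test with condition alone, and Benjamini-Hochberg adjustment over all genes tested. Genes were called at an adjusted p under 0.05 with a fold change over 1.2. Standard errors came from the log2 fold change and the F statistic. The code was tested on simulated data. Depth was 153511705 to 195910235 counts per library, so spread between libraries, not counting, limits precision: the chi-square per degree of freedom was 99.6 within NSD and 53.4 within SD. P-values rest on 2 pools per group.

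The labels give a batch that equals the replicate number, so the numbers pair the libraries (correlation of deviations over genes 0.178), and a fit with the batch as a block was an alternative, as were DESeq2 1.42.0, its size factors, other count filters, protein-coding genes alone, no fold threshold and leaving out each library. Exon lengths and overlaps came from GENCODE on GRCm39, and motifs from RefSeq promoters. Named genes were the 35 members, every gene called without or with the block in the wider pathway lists, Fos, Rpl22 and markers beside a result; Rxra was added after its values were seen. One marker gene is not reported here. The members, gene lists and alternatives were chosen with earlier results of these data known.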

Additional observations from a re-analysis of the deposited data

How the results depend on the processing

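Lpl was lower in SD under every alternative tried, with log2 fold changes from -0.86 to -0.69, and kept its call in all but filterByExpr, where no member was called and 5 had an unadjusted p under 0.05. The fold change moved little there and the adjustment ran over 24323 genes. Genes called over the whole table numbered 172 higher and 520 lower by edgeR, 668 and 1891 with the batch block, 671 and 1296 with DESeq2, 50 and 80 without a count filter, 1 and 0 with filterByExpr in edgeR (4410 of 24323 genes at an unadjusted p under 0.05), 51 and 39 among protein-coding genes alone, and 124 to 308 and 78 to 1955 when each library was left out, with 78 lower without NSD replicate 1 and 1955 lower without SD replicate 1. The cause was not tested. A group left with 1 library was assumed to vary like the other. Members called were 0 higher and 1 lower, against 1 and 3 with the batch block, 1 higher with DESeq2, 0 lower with filterByExpr, and 1 to 2 lower on leaving out libraries, the second being Tm7sf2 without SD replicate 2. The batch block added Insig2, Lss, Tm7sf2 and Gramd1a and changed no other call among the 35 members and the wider pathway genes. Elovl6 was not called without a count filter, with filterByExpr, among protein-coding genes alone or without NSD replicate 1.

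The median of the 19 synthesis genes was 0.018 with DESeq2 and with its size factors, 0.024 without a count filter, -0.026 among protein-coding genes and -0.040 to 0.020 on leaving out libraries, so it has no stable sign. The median of the 11 lipid genes ranged from -0.016 to 0.068 on leaving out libraries. Of the 35 members 19 changed sign in at least 1 alternative and none of these was called in any. With the batch block the sign changed for Acat2 (-0.00033), Fdps (-0.0036). With DESeq2 the sign changed for Mvk (0.018), Sqle (0.0094), Msmo1 (0.017), Scap (0.016), Scd2 (0.017). With DESeq2 size factors in edgeR the sign changed for Mvk (0.018), Sqle (0.0094), Msmo1 (0.017), Scap (0.016), Scd2 (0.017). Without a count filter the sign changed for Mvk (0.024), Sqle (0.015), Msmo1 (0.023), Scap (0.022), Scd2 (0.023). With filterByExpr the sign changed for Mvk (0.0025), Msmo1 (0.0012), Scd2 (0.0017). With protein-coding genes alone the sign changed for Acat2 (-0.021), Idi1 (-0.00026), Fdps (-0.019), Cyp46a1 (-0.016). On leaving out libraries the log2 fold change ranged for Acat2 from -0.028 to 0.039, Hmgcs1 from -0.10 to 0.020, Mvk from -0.060 to 0.084, Mvd from -0.042 to 0.20, Idi1 from -0.088 to 0.16, Fdps from -0.14 to 0.14, Fdft1 from -0.037 to 0.16, Sqle from -0.057 to 0.040, Msmo1 from -0.029 to 0.050, Ebp from -0.19 to 0.070, Srebf1 from -0.27 to 0.30, Scap from -0.044 to 0.042, Vldlr from -0.0040 to 0.099, Lrp8 from -0.015 to 0.13, Stard4 from -0.17 to 0.085, Cyp46a1 from -0.083 to 0.13, Fasn from -0.047 to 0.14, Scd1 from -0.13 to 0.27, Scd2 from -0.031 to 0.051.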

Other observations

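Ratios between paired genes were taken after their values were seen and were not tested. The ratio of Insig2 to Insig1 CPM was 0.642 and 0.861 in NSD and 0.885 and 1.05 in SD. The ratio of Cyp51 to Lss CPM was 1.13 and 1.29 in NSD and 1.60 and 1.92 in SD. Both ratios were higher in SD within each batch and did not overlap between groups. The ratio of Scd2 to Scd1 CPM, 6.70 and 8.36 in NSD and 6.96 and 7.45 in SD, and that of Srebf2 to Srebf1, 6.52 and 9.63 against 7.40 and 8.09, overlapped. The ratios carry the limits of their genes, the Akap9 overlap of Cyp51 among them.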
